A study of Mus musculus with 4 samples.

Results

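The genes described here encode enzymes and metal-binding proteins that protect cells from oxidative damage: the superoxide dismutases Sod1, Sod2 and Sod3, catalase (Cat), the glutathione peroxidases Gpx1 and Gpx3, the metallothioneins Mt1 and Mt2, the peroxiredoxin gene Prdx6 and paraoxonase 1 (Pon1). They were taken by name: every probe set of the value table that the platform annotation assigns to exactly 1 of these 10 symbols was used. That gave 19 probe sets for 9 genes, out of 18193 genes with a probe set of their own. Prdx6 was not analysed here.

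The tested mice carried a myocilin transgene and had this secreted glycoprotein in the aqueous humor, and the reference was tissue of control mice. The labels call the tissue retina, and the series title gives the effect of myocilin on it as the subject. RNA of the transgenic mice was hybridised to 2 arrays and RNA of the control mice to 2 arrays. Per the labels, control array 2 repeats control array 1 as a technical replicate, and both count as 1 control sample. Whether the transgenic arrays stem from different animals is not stated. The p-values below rest only on the spread between these arrays, for the probe set itself and for others of similar intensity. That spread may be technical. The sources used here give no strain, age, sex, form of myocilin or promoter of the transgene.

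Superoxide dismutases turn superoxide into hydrogen peroxide, in the cytosol (Sod1), the mitochondrial matrix (Sod2) and outside the cell (Sod3). Catalase, glutathione peroxidases and peroxiredoxins then remove the peroxide. Metallothioneins are small cysteine-rich proteins that bind zinc and copper, and their genes are switched on by metals through the factor MTF1 and by glucocorticoids. Paraoxonase 1 is an esterase and lactonase made mainly by the liver and carried in blood on high density lipoprotein, where it limits lipid oxidation. In the eye these systems serve tissues exposed to light and oxygen.

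Pon1 was higher in the transgenic samples, at 2.32 times its control signal, while no other gene of the set passed the test in either direction. The dismutases, catalase, both glutathione peroxidases and both metallothioneins had log2 changes between −0.044 and 0.17. In limma, 1 of the 9 genes passed an adjusted p of 0.05, and it was also the only gene of the set with an unadjusted p under 0.05. Over all 27022 probe sets tested, 0.0777% passed, 0.0555% with higher signals, while 7.06% had an unadjusted p under 0.05, 4.14% with higher signals. The median log2 change was 0.029 for the 9 genes and −0.018 for all probe sets tested. With transgenic array 1 alone the median of the 9 genes was 0.16, and with transgenic array 2 alone it was 0.0013. Changes are differences of log2(signal + 16), transgenic minus control. Each gene is represented by its brightest probe set unless another is named, and levels of different probe sets are not compared.

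The promoter windows of the called gene, Pon1, and of the metallothionein pair, whose regulation by metals is the best known in the set, are printed for comparison. Sequences are from RefSeq on build GRCm38.p6 and span 250 bases before to 50 bases from a transcript start, 5′ to 3′ on the strand of the gene. Capitals mark the 50 bases from the transcript start in Pon1 (chr6:5193897-5194196, minus strand). In Mt1 (chr8:94178839-94179138, plus strand) and Mt2 (chr8:94172368-94172667, plus strand) they mark the core of the metal response element, TGCACNC or TGCGCNC on either strand.
Pon1: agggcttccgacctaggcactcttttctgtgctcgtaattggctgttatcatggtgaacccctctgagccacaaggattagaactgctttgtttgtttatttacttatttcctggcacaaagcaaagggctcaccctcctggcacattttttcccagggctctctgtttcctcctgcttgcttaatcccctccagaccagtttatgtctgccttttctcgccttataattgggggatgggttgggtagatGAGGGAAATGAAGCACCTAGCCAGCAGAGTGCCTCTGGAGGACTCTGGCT
Mt1: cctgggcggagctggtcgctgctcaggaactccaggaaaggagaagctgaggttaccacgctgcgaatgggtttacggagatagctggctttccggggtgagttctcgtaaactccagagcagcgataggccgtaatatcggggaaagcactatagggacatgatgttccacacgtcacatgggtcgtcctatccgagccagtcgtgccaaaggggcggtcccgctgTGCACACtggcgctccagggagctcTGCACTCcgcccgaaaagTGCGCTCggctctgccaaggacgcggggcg
Mt2: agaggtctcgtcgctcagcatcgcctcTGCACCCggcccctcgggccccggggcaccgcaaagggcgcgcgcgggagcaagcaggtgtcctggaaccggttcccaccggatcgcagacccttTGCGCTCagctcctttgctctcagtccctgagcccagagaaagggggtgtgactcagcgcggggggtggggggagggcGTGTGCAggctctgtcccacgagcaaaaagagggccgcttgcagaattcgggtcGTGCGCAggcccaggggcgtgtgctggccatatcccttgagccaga

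The Mt1 window held 3 matches to the metal response core and the Mt2 window 4, while 25.7% of 32851 promoter windows of the same length held at least 1. The Pon1 window held 0, as did those of Sod1, Sod2, Cat, Gpx1 and Gpx3. The core of the antioxidant response element, TGACNNNGC on either strand, occurred 1 time in the Sod1 window and 1 time in the Mt2 window, where it overlapped no metal response core. That core was present in 12.4% of all windows and in none of the other 6 windows of the set. Windows were found for 8 of the genes, and Sod3 had none in the table. Letters that match are a description and not evidence of a site in use.

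Pon1 had signals of 327 and 311 on the transgenic arrays, against 147 and 128 on the control arrays. Both transgenic arrays lay well above both control arrays, and the gap between the groups exceeded the gap within either. The mean signal was 319 ± 10.999 (SD, n = 2) in transgenic samples and 137 in the control sample. The log2 change was 1.13 ± 0.16 (SE), with a 95% interval from 0.77 to 1.48 and a limma adjusted p of 0.0324. The 2 control arrays differed by 0.17 on this scale and the 2 transgenic arrays by 0.067. The call ended when dim probe sets were kept in the test (adjusted p = 0.723) and when the variance was not fitted to intensity (adjusted p = 0.905). It held in the other 10 of 12 tested alternatives, in which the adjusted p was at most 0.0393. Pon1 has a single probe set here, so no second one could be set beside it. In tissue pieces such as these, more cells of a type and more RNA per cell cannot be told apart.

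**Figure D1:**
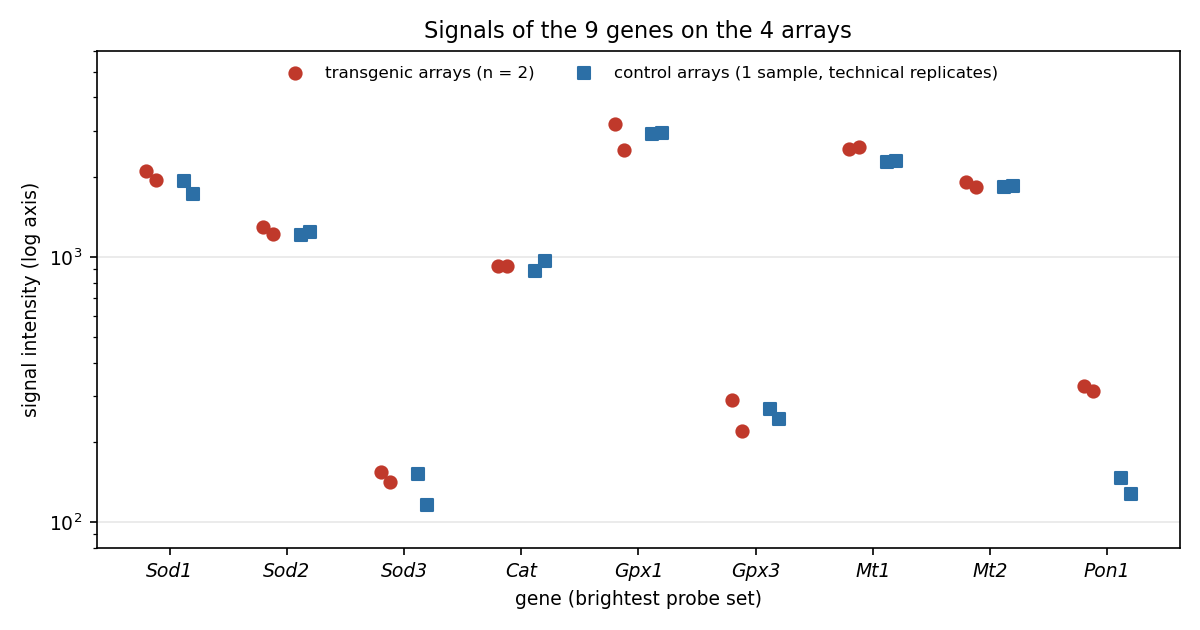
Signal intensity (log axis) of the brightest probe set of each gene, with the 2 transgenic arrays as red circles and the 2 control arrays, technical replicates of 1 sample, as blue squares. Pon1 lies at 327 and 311 in transgenic and at 147 and 128 in control, and the other 8 genes lie close together across arrays.

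Markers of several cell types were also higher in the transgenic samples, some by more than Pon1. In limma, 9 marker genes passed with higher signals, 3 of them lens genes, and 1 with lower signals. The lists held from 2 to 11 tested genes each. Over all 27022 probe sets tested, 0.0555% passed with higher signals and 0.0222% with lower signals. The marker lists were chosen with earlier results of these data known, so the counts are only a description. Of 12 lens genes with a probe set, 8 passed the filter on the mean over all 4 arrays and were tested. All 8 were above 0, the median log2 change was 0.94, and the crystallin genes Cryaa (2.00), Cryba1 (1.96) and Crygb (1.84) passed. Their control means of 13.6, 25.9 and 19.2 lay below the filter level of 29.98. So did those of Crybb1 (29.57), Crybb2 (20.4) and Bfsp2 (22.6). These genes were tested only through their transgenic signals, so the count, median and calls are largely set by the filter. Cryab (0.28) and Lim2 (0.18), whose control means lay above that level, did not pass. The untested Cryba4 (1.04) and Crygs (1.61) were higher without overlap, while Bfsp1 (−0.29) and Mip (0.19) overlapped. Cryaa had signals of 102 and 100.4 on the transgenic arrays, against 9.47 and 17.7 on the control arrays. In the corneal stroma and sclera list 8 of 9 genes were above 0, with a median of 0.28, and Kera, a proteoglycan gene of the cornea, passed. Kera had signals of 2939 and 3227 on the transgenic arrays, against 1008 and 1094 on the control arrays (log2 change 1.54, adjusted p = 0.000286). Of 11 tested genes of pigment epithelium and melanocytes 10 were above 0, with a median of 0.47, and the visual cycle genes Rpe65 (1.24) and Rgr (1.06) passed. For skeletal muscle the median was 0.48, 10 of 11 genes stood above 0, and Mb (1.06), Myl1 (1.00) and Mylpf (0.87) passed, whereas the muscle actin gene Acta1 stood at 0.38 and did not.

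In corneal and surface epithelium 6 of 10 genes were below 0, with a median of −0.18, and the mucin gene Muc4 passed at −0.79 (adjusted p = 0.0324), while the corneal keratin gene Krt12 stood at 0.22. Macrophage genes were 5 above and 5 below 0, with a median of 0.019, and Csf1r, their growth factor receptor gene, stood at 0.43 without passing. Of the red blood cell genes, 2 of 7 were above the filter level of 29.98, and Alas2, the erythroid heme synthesis gene, stood at 0.72 without passing. Vascular endothelium had a median of 0.058 over 8 tested genes, adipocytes 0.12 over 3 and rod photoreceptors −0.15 over 3, and no gene of these lists passed. Adipoq, which defines fat cells, was dim at 2.71 and 8.02 on transgenic arrays and 8.48 and 1.30 on control arrays. Summed over a list, which its brightest genes dominate, the signal of transgenic over control arrays had a ratio of 1.61 for skeletal muscle, 1.58 for red blood cells, 1.38 for lens, 1.30 for corneal stroma and sclera and 1.24 for pigment epithelium and melanocytes. The ratio was 1.15 for adipocytes, 1.12 for macrophages, 1.01 for vascular endothelium, 0.998 for corneal and surface epithelium and 0.92 for rod photoreceptors. Alas2 made up most of the red blood cell sum and Cryab most of the lens sum. The part of these cell types in the Pon1 result was not tested.

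**Figure D2:**
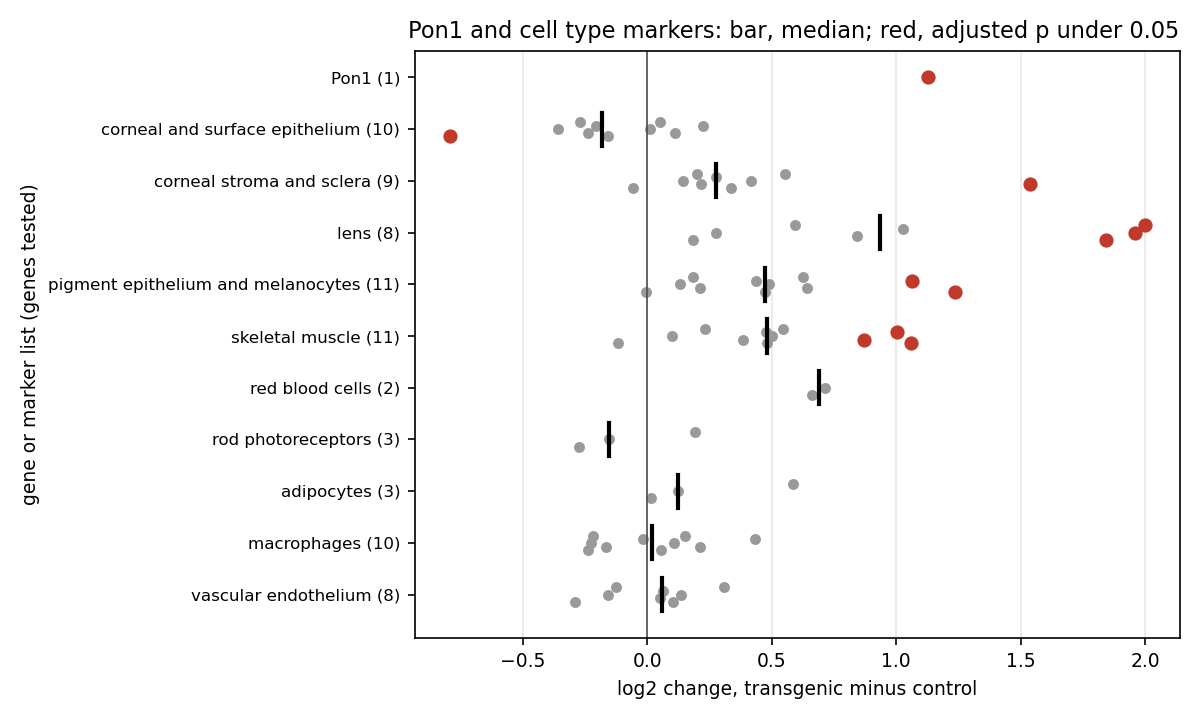
Log2 change, transgenic minus control, of Pon1 and of each tested marker gene by cell type list, with the number of genes tested in brackets, the list median as a black bar and genes with an adjusted p under 0.05 in red. Pon1 lies at 1.13, below the lens genes Cryaa, Cryba1 and Crygb (1.84 to 2.00), Kera (1.54) and Rpe65 (1.24). The lens genes named here were tested only through their transgenic signals.

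The tissue label was checked against the same lists. All 10 corneal and surface epithelium genes gave signals above the filter level, with array means from 962 to 12152, whereas 3 of 10 rod photoreceptor genes did, with means from 3.61 to 134. Gnat1, the transducin subunit of rods, had signals of 21.3 and 12.4 on transgenic arrays and 14.3 and 33.5 on control arrays. The rods are the most numerous neurons of a mouse retina, and most of the genes on this list were dim. The trimmed mean signal was 149.96 on each of the 4 arrays.

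Among the superoxide dismutases, Sod1, the cytosolic copper and zinc enzyme, had signals of 2119 and 1959 on the transgenic arrays, against 1927 and 1734 on the control arrays. The groups did not overlap, but the lower transgenic array lay close to the higher control array. The log2 change was 0.16 ± 0.10 (SE), with a 95% interval from −0.075 to 0.38 (limma adjusted p = 0.840). The other probe sets of Sod1 did not move together. In order of brightness they stood at 0.11, −0.23 and 0.0997, each with overlapping arrays. The dimmest Sod1 probe set was below the filter, with signals from 0.607 to 11.8, and was not tested.

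Sod2, the manganese enzyme of mitochondria, had signals of 1295 and 1218 on the transgenic arrays, against 1216 and 1245 on the control arrays. The arrays of the groups interleaved, and the log2 change was 0.029 with an interval from −0.21 to 0.27. Its other 3 probe sets stood at 0.017, 0.016 and 0.028. Sod3, the extracellular enzyme bound to matrix and vessel walls, had signals of 155 and 142 on the transgenic arrays, against 152 and 116 on the control arrays. The groups overlapped, and the log2 change was 0.15 with an interval from −0.29 to 0.58. A dimmer Sod3 probe set had signals of 118 and 85.3 on the transgenic arrays, against 85.1 and 67.6 on the control arrays. It stood at 0.34 with an interval from −0.22 to 0.91 (limma adjusted p = 0.871), and its groups did not overlap, though transgenic array 2 lay close to control array 1. Both Sod3 probe sets were higher on control array 1 than on control array 2.

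Among the enzymes that remove peroxide, catalase, which works in peroxisomes, had signals of 922 and 926 on the transgenic arrays, against 885 and 967 on the control arrays. Both transgenic arrays lay between the control arrays, and the log2 change was −0.0016 with an interval from −0.25 to 0.25. A second Cat probe set had signals of 649 and 677 on the transgenic arrays, against 588 and 602 on the control arrays. Its groups did not overlap, its log2 change was 0.15, and it did not pass in limma (adjusted p = 0.885). Gpx1, the cytosolic selenium peroxidase, had signals of 3168 and 2527 on the transgenic arrays, against 2906 and 2929 on the control arrays. The transgenic arrays lay on either side of the control arrays, with a log2 change of −0.044 and an interval from −0.32 to 0.24. Gpx3, the secreted peroxidase of plasma, had signals of 288 and 220.1 on the transgenic arrays, against 267 and 246 on the control arrays. It showed the same spread on either side, with a log2 change of −0.022 and an interval from −0.43 to 0.38. Transgenic array 1 exceeded transgenic array 2 by 0.32 for Gpx1 and by 0.36 for Gpx3 on the log2 scale.

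Mt1 had signals of 2566 and 2602 on the transgenic arrays, against 2289 and 2311 on the control arrays. Both transgenic arrays lay above both control arrays, and the arrays of each group lay close together. The log2 change was 0.17 ± 0.098 (SE), with an interval from −0.049 to 0.38, and did not pass in limma (adjusted p = 0.805). The name of its probe set ends in s_at, the suffix for probes that can match several transcripts, so its signal may not be from Mt1 alone. The probe sets that represent Sod1, Sesn1, Pltp and Pon2 carry the same suffix, so the same limit holds for them. A second Mt1 probe set was below the filter, with signals of 20.7 and 32.2 on transgenic arrays and 41.7 and 11.8 on control arrays. Mt2 had signals of 1917 and 1843 on the transgenic arrays, against 1837 and 1846 on the control arrays. The groups overlapped, and the log2 change was 0.029 with an interval from −0.195 to 0.25.

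**Figure D3:**
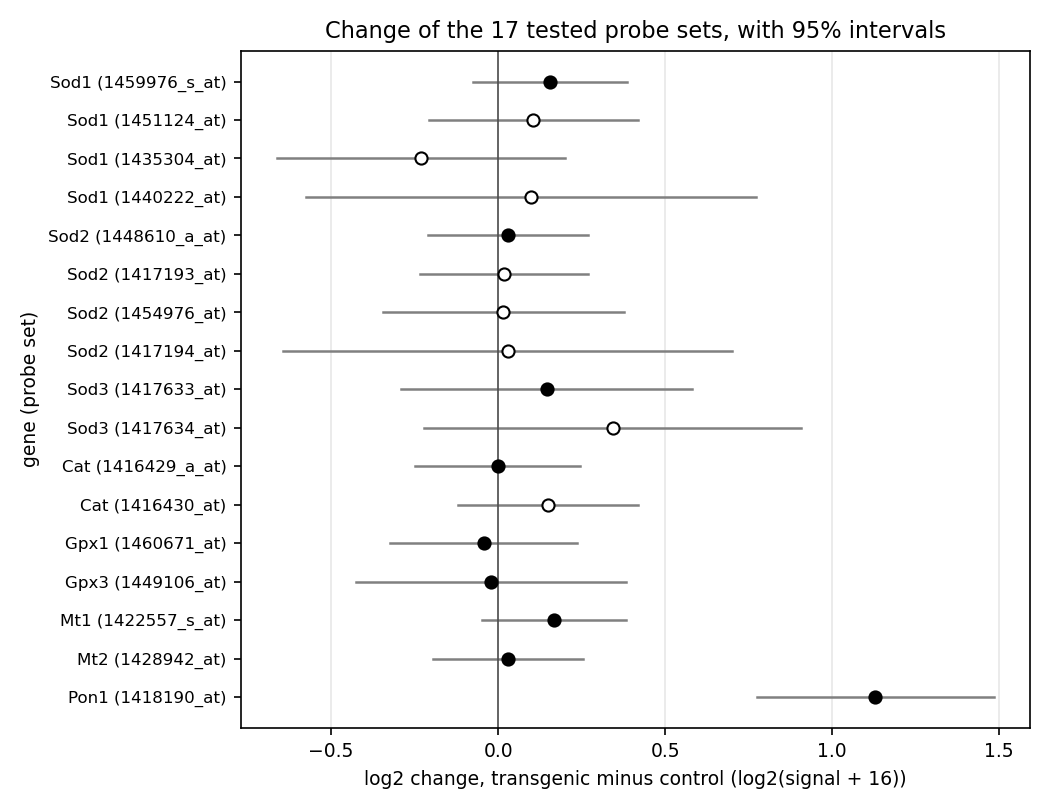
Log2 change, transgenic minus control, of the 17 tested probe sets, with 95% intervals from limma as lines, the brightest probe set of each gene filled and the others open. The interval of Pon1 runs from 0.77 to 1.48, and each of the other 16 intervals includes 0.

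Arrays of the groups did not overlap, with the transgenic arrays higher, for 3 of the 9 genes (Sod1, Mt1 and Pon1) and for 5 of the 17 tested probe sets. None of the 17 was lower without overlap. Over all probe sets tested, 44.7% did not overlap: 21.1% of all had the transgenic arrays higher and 23.6% had them lower. By gene, 6 of the 9 were above 0 and 3 below. Of the tested probe sets of the set, 13 were above 0 and 4 below, against 46.9% above 0 over all probe sets. Several of the 17 measure the same gene on the same arrays, so they are not separate observations. For the 8 genes that did not pass, the lowest bound of an interval was −0.43 (Gpx3) and the highest 0.58 (Sod3).

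A list of other peroxidases, which also held the superoxide dismutase partner Ccs, had 13 genes with a probe set, of which 8 were tested. None passed in limma in either direction, 4 had an unadjusted p under 0.05, all higher, and 7 of 8 were above 0. Over all probe sets tested, 4.14% had an unadjusted p under 0.05 with higher signals, and 46.9% were above 0. The median log2 change was 0.27, and it was 0.18 after quantile normalization. Gpx7, an endoplasmic reticulum member of the glutathione peroxidase family, had signals of 242 and 234 on the transgenic arrays, against 162 and 141 on the control arrays (log2 change 0.60, adjusted p = 0.412). Gpx8, a membrane-bound relative in the same compartment, had signals of 1227 and 1096 on the transgenic arrays, against 775 and 880 on the control arrays (0.48, adjusted p = 0.307). Gpx4, which reduces lipid peroxides in membranes, had signals of 2781 and 2527 on the transgenic arrays, against 2096 and 2017 on the control arrays (0.36, adjusted p = 0.416), and its second probe set stood at 0.28. For each of these 3 genes both transgenic arrays lay above both control arrays, unlike Gpx1 and Gpx3. They were named for the largest absolute changes of their list, which favours such a separation. Of all probe sets tested, 21.1% were higher without overlap. In the same list Prdx2 (0.19) and Prdx3 (0.355) were also higher without overlap, while Prdx4 (−0.079), Ccs (0.042) and Pxdn (0.026) overlapped. The difference between the genes was not tested.

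Lists of the glutathione, thioredoxin and Nfe2l2 systems, which supply and regulate the same defences, held no gene that passed in limma. Of 33 tested glutathione genes, 23 were above 0, the median was 0.095 on the log2 scale, and 1 had an unadjusted p under 0.05. The median was 0.057 without control array 1 and 0.051 after quantile normalization. The gene with that p was Gstm5, a glutathione transferase gene, with signals of 920.3 and 902 on the transgenic arrays and 610 and 649 on the control arrays (0.52, adjusted p = 0.259). Ggt5, a glutamyltransferase gene, stood at 0.35 and Gstk1, a mitochondrial and peroxisomal transferase gene, at 0.33. Dimmer Ggt5 probe sets, which were not tested, stood at −0.24 and 0.0027 with overlapping groups. Of 14 thioredoxin and sulfoxide reductase genes, 6 were above 0, with a median of −0.080, and 3 had an unadjusted p under 0.05, all lower. The median was −0.0027 without control array 1 and −0.044 after quantile normalization. Txnip, the thioredoxin inhibitor, had signals of 1264 and 1322 on the transgenic arrays, against 1666 and 1728 on the control arrays (−0.39, adjusted p = 0.392), and its second probe set stood at −0.19. The sestrin genes Sesn2 and Sesn1 stood at −0.69 and −0.35, with a second Sesn2 probe set at −0.10 and overlapping groups, and other probe sets of Sesn1 at −0.27, −0.46 and 0.040. Of 24 genes of the Nfe2l2 pathway, the main inducer of antioxidant genes, 12 were above and 12 below 0, with a median of 0.016 and 1 unadjusted p under 0.05. That median changed sign, to −0.028 without control array 1 and −0.020 after quantile normalization, and was 0.093 without control array 2. Me1, a malic enzyme gene that supplies NADPH, stood at 0.62, Hmox1, the inducible heme oxygenase gene, at −0.48 and Osgin1 at 0.45. A second Me1 probe set, which was not tested, stood at 0.18 with overlapping groups.

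Zinc and copper handling genes, the setting of the metallothioneins, had a median log2 change of 0.012 over 27 tested genes, with 14 above and 13 below 0. It was −0.041 without transgenic array 1, 0.053 without transgenic array 2, −0.031 without control array 1, −0.015 without control array 2 and 0.031 after quantile normalization. None passed in limma, and 4 had an unadjusted p under 0.05, 1 higher and 3 lower. Mt3, a further metallothionein gene known from the nervous system, had signals of 132 and 136 on the transgenic arrays, against 82.8 and 67.7 on the control arrays. Its groups did not overlap, and its log2 change of 0.72 ± 0.22 (SE) did not pass (adjusted p = 0.443). Slc30a3, a vesicular zinc transporter gene, stood at −1.16 ± 0.48 (SE) with transgenic signals of 70.1 and 15.2 that differed widely from each other, against 97.3 and 103 in control. Slc31a2, a copper transporter gene, stood at −0.44 on its named probe set and at 0.11 on a second one, whose groups overlapped.

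Genes induced by glucocorticoids, a second class of signal that acts on Mt1 and Mt2, were mostly lower in the transgenic samples. Of 16 tested, 15 were below 0, with a median log2 change of −0.41. In limma 1 passed and 7 had an unadjusted p under 0.05, all lower. The list was not uniform: Sgk1 stood at −0.0086 and Dusp1 at 0.20, both with overlapping arrays. Arrays also overlapped for Klf15, Nfkbia and Lcn2. These genes fall outside the rule for named genes and were chosen after their values were seen. Over all probe sets, 0.0222% passed with lower signals and 2.92% had an unadjusted p under 0.05 with lower signals. The gene that passed was Tsc22d3, which fell to 631 and 643 on the transgenic arrays, against 1245 and 1350 on the control arrays (−1.01 ± 0.12, SE, limma adjusted p = 0.00732). That call too ended with dim probe sets kept (adjusted p = 0.536) and with no trend (adjusted p = 0.905). The other 3 probe sets of Tsc22d3 stood at −0.84, −0.44 and 0.24, and none of them passed. Zbtb16 stood at −0.86 and Fkbp5, a chaperone of the glucocorticoid receptor, at −0.68, and neither passed. Other probe sets stood at −0.73 and −0.31 for Zbtb16 and at −0.84 for Fkbp5, with a dim, untested Fkbp5 one at 0.16. The median of this list was −0.18 without transgenic array 2 and −0.51 without transgenic array 1. Mt1 and Mt2, at 0.17 and 0.029, did not lie below 0 with this list, though the difference was not tested.

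The list of other paraoxonases and high density lipoprotein genes had 18 genes with a probe set, of which 11 were tested. None passed in limma, 3 had an unadjusted p under 0.05, all higher, and the median log2 change was 0.12, with 0.22 without transgenic array 2, 0.012 without transgenic array 1, 0.029 without control array 2 and −0.00095 after quantile normalization. Pltp, a phospholipid transfer protein gene, had signals of 2807 and 2520 on the transgenic arrays, against 1827 and 1659 on the control arrays. Its log2 change of 0.61 ± 0.11 (SE) had a limma adjusted p of 0.113, and a second, dimmer Pltp probe set stood at −0.0082 with overlapping arrays. Apod, a lipocalin of nerve and connective tissue, stood at 0.44 (adjusted p = 0.296), and Apoe, the main lipid carrier of the nervous system, at 0.22 (adjusted p = 0.680). A dim Apod probe set, which was not tested, stood at 0.0055 with overlapping groups. Pon2 and Pon3, the other genes of the paraoxonase family, fall outside the rule for named genes and were chosen after their values were seen. Pon2 had signals of 1093 and 1152 on the transgenic arrays, against 1244 and 1279 on the control arrays (log2 change −0.17, adjusted p = 0.836). Pon3 had signals of 460.0 and 431 on the transgenic arrays, against 353 and 416 on the control arrays (0.21, adjusted p = 0.833). Neither passed, and their differences from Pon1 were not tested.

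**Figure D4:**
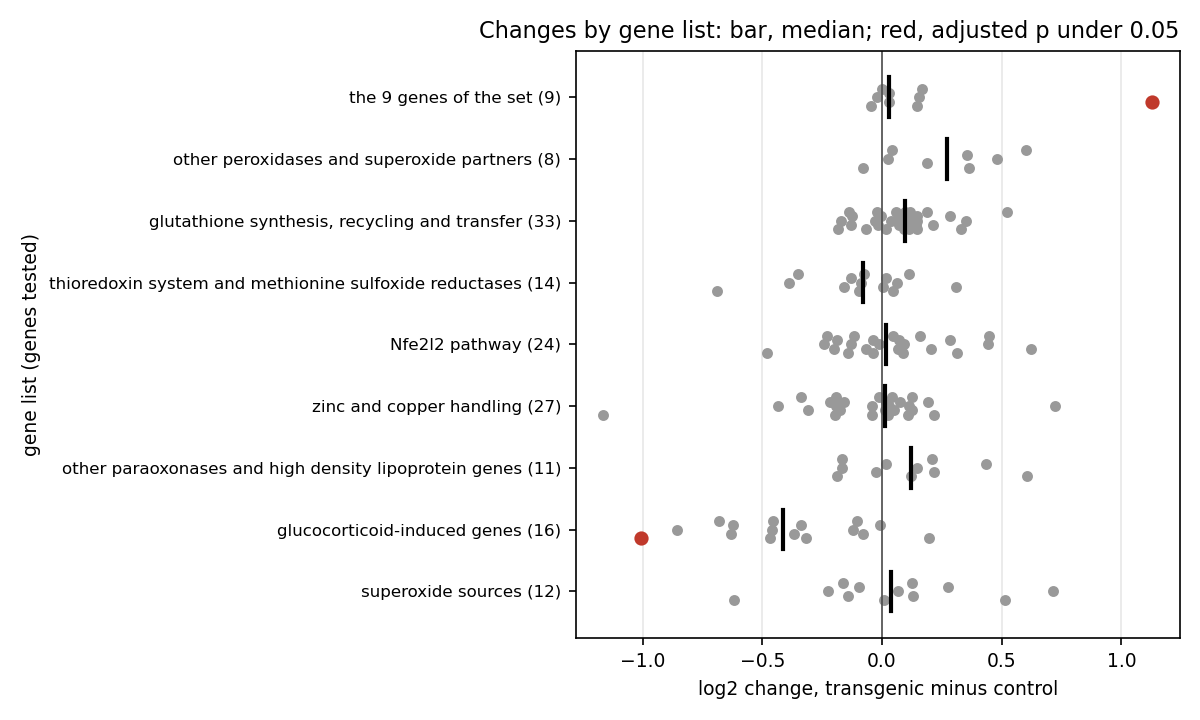
Log2 change, transgenic minus control, of each tested gene by list, with the number of genes tested in brackets, the median as a black bar and genes with an adjusted p under 0.05 in red. Pon1 at 1.13 and Tsc22d3 at −1.01 are the red points, and the medians run from −0.41 for glucocorticoid-induced genes to 0.27 for other peroxidases.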

How the data were processed

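RNA of eye tissue was measured on 4 single-channel arrays, 2 of transgenic and 2 of control mice. The deposited values, per the file headers 1 column for each sample, are linear signal intensities of 45101 probe sets, and the software behind them is not given in the sources used here. They were used as deposited, because the mean after trimming 2% at each end was equal across arrays, and 64 array control probe sets were left out. Precision is limited by there being 4 arrays.

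Signals were transformed as log2(signal + 16). Probe sets with a mean above the 40th percentile, a signal of about 29.98, were tested, which left 27022. The control arrays were averaged, and limma 3.58.1 in R 4.3.3 was fitted over all of them with an intensity trend, two-sided, with Benjamini-Hochberg adjustment and a threshold of 0.05. The fit had 1 residual and 10.3 prior degrees of freedom, so the spread of the control group was taken to equal that of the transgenic samples. Run on simulated data, the model recovered the signs of the changes that it called, and signs of changes not called were not scored. The share of false calls exceeded the nominal level in each run. Adjusted p-values close to the threshold, such as that of Pon1, are therefore less firm than they read. Genes were named from the platform annotation; 34958 probe sets had 1 symbol, 932 several and 9211 none, and 0 symbols changed when updated by gene identifier.

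The genes of the set and the lists were chosen with earlier results of these data known. All genes of the set are named, and from each pathway list those that passed and the 3 with the largest absolute change; of the cell type markers, those that passed and the defining ones are named. The marker lists are cell type markers of the tissues an eye sample can hold. Same-numbered arrays of the groups share only a number, so no pairing was used. Alternatives were other scalings, pseudocounts of 1 and 64, no filter or the 60th percentile, 4 separate arrays with and without the replicate block, other moderation, each array left out, and other probe sets.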

Additional observations from a re-analysis of the deposited data

How the results depend on the processing

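The number of probe sets past the threshold was 21 (15 higher and 6 lower), and it depended on the settings. It was 39 after quantile normalization (20 higher, 19 lower), 56 after median centring (47 higher, 9 lower), 0 without the filter and 0 without the intensity trend (2181 and 1059 in limma at an unadjusted p under 0.05), 135 with the 4 arrays as separate samples and 1740 with the replicate block. Leaving out arrays gave 14 (without control array 1) to 33 (without control array 2). The number of genes of the set past the threshold was 0 without the filter and 0 without the intensity trend, where Pon1 was the gene lost, and 1 in each of the other 10 alternatives with a test, those without 1 control array included. The log2 change of Pon1 ran from 0.93 to 1.22. The correlation of deviations of same-numbered arrays was 0.096, so the replicate block is given here only.

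The median log2 change of the 9 genes ran from 0.0013 to 0.16 when arrays were left out. Genes near 0 changed sign. Sod2 was at −0.010, Gpx3 at 0.0050 and Mt2 at −0.037 after quantile normalization. Cat was at 0.029 and Gpx3 at 0.0082 after median centring. When arrays were left out, Sod3 ran from −0.029 to 0.32, Cat from −0.064 to 0.061 and Gpx3 from −0.20 to 0.160, with Gpx3 at 0.034 without control array 1. Another probe set gave −0.23 for Sod1 and 0.15 for Cat. Of the tests of the named list genes in other settings, 20 passed where the test of the main setting did not. Most of these were with the replicate block, and Pltp also passed after median centring. Over all tested genes of the lists, the replicate block called 8 of 16 glucocorticoid-induced genes and 5 of 8 other peroxidases. It called 1 to 3 genes in each of the other pathway lists. Without 1 of the transgenic arrays no residual degree of freedom was left, so those values have no test.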

Other observations

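Enzymes that make superoxide and peroxide, which supply the substrates of the dismutases and peroxidases, showed no gene past the threshold in limma. Of the 12 tested, 7 stood above 0, the median was 0.037 on the log2 scale, and 2 had an unadjusted p under 0.05, 1 in each direction. Ncf4, a subunit of the phagocyte oxidase, had signals of 74.2 and 67.8 on the transgenic arrays, against 29.1 and 46.4 on the control arrays (0.71, adjusted p = 0.649). Xdh, which encodes xanthine dehydrogenase, had signals of 61.3 and 102 on the transgenic arrays, against 116 and 148 on the control arrays (−0.62, adjusted p = 0.702). Aox1, an aldehyde oxidase gene, had signals of 77.0 and 72.8 on the transgenic arrays, against 50.8 and 44.6 on the control arrays (0.51, adjusted p = 0.779). The median of this list was 0.22 without transgenic array 1, −0.037 without transgenic array 2, 0.018 without control array 1, −0.0098 without control array 2 and 0.065 after quantile normalization.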
